A study of Mus musculus with 24 samples.

Results

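LSD1 is a histone demethylase, and the regions described here are the broad LSD1 peaks, 5000 bp or wider, in the peak list of 3T3-L1 cells labelled as overexpressing LSD1 at day 0. They were chosen by width (end minus start) from the 13997 peaks of that list (4.52%), and the 6 lists of the series hold 56252 peaks in all. 3T3-L1 is a mouse line of preadipocytes, which a hormone cocktail drives to become adipocytes. 12 RNA-seq libraries, 3 in each of 4 groups, follow the genes under those peaks: LSD1-labelled cells at day 7, control cells at day 7, LSD1-labelled cells at day 0 and control cells at day 0. Chromatin immunoprecipitation (ChIP-seq) gave 1 LSD1 list for each of the same 4 groups and 1 Nrf1 list for each day, so no peak value has a replicate, while 6 input samples gave no file used here. Day 0 is the confluent, undifferentiated culture. Day 7 cells had received isobutylmethylxanthine at 500 µM, rosiglitazone at 10 µM, dexamethasone at 1 µM and insulin at 10 µg/ml, with insulin alone after a medium change at day 3, and all cells grew in 10% fetal bovine serum. How the overexpressing cells were made, and whether they are 1 clone or a pool, is not given in the sources used here.

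LSD1, encoded by Kdm1a, removes methyl groups from lysines of histone tails through a flavin-dependent oxidation. It works inside complexes with the scaffold CoREST and histone deacetylases, where it is known mainly as a corepressor, and it is also found at active promoters. In fat cells it has been studied as a regulator of oxidative and thermogenic genes, in part together with Nrf1, a factor that binds GC-rich promoter sites of nuclear genes for mitochondrial function.

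Most broad peaks lay on promoters and ran from there into the gene, so the promoters of 4 covered genes are printed to show how different the sequences at these starts are. A gene is called covered where the start site of at least 1 of its RefSeq transcripts lies inside a broad peak. The sequences are RefSeq's, from 250 bases before to 50 after the start, on build GRCm38.p6, whose coordinates are those of mm10. Csf1 (minus strand, chr3:107760420-107760719) belongs to the third-widest peak, Col3a1 (plus strand, chr1:45311288-45311587) to the gene that holds the second-widest, Ifit1 (plus strand, chr19:34640639-34640938) to a peak missing from every other LSD1 list, and Atf5 (minus strand, chr7:44815609-44815908) to a gene higher in LSD1-labelled cells at day 7. Capitals mark matches to the motifs listed in the next paragraph.
Csf1: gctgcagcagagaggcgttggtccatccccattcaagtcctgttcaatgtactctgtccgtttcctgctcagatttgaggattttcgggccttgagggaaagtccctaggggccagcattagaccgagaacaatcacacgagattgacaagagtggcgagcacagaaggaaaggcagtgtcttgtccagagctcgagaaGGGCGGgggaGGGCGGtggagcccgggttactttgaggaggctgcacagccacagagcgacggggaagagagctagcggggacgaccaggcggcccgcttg
Col3a1: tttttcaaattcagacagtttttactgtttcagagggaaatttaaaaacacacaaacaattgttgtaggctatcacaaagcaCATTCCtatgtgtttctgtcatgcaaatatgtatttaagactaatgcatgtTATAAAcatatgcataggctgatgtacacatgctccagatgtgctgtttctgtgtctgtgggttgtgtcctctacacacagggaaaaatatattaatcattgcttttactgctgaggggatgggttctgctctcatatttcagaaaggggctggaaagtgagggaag
Ifit1: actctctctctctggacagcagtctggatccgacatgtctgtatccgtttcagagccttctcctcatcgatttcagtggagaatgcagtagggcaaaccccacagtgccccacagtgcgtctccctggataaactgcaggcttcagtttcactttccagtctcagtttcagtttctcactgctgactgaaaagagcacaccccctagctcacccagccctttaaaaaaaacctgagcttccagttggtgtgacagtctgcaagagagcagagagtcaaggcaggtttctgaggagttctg
Atf5: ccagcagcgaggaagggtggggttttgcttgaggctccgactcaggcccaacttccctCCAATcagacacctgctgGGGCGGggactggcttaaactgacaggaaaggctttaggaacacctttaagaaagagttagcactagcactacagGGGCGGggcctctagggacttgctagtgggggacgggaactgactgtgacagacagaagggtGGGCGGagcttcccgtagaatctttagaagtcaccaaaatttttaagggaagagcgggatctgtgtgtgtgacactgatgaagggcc

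The Csf1 window held a pair of GC boxes whose first bases lie at -51 and -41 relative to the start. The Col3a1 window held a TEAD motif at -168 and a TATA box at -117, and no CG dinucleotide at all (observed over expected CpG 0). Atf5 held a CCAAT box at -192 and GC boxes at -174, -99 and -37, and Ifit1 matched none of the searched letters. Over the 572 promoters of 459 covered genes in the table, the GC box (GGGCGG) was present in 62.2%, against 35.7% of all 32851 promoters in the table. The other motifs, searched on both strands, were closer in percentage points to their share over all promoters. The Nrf1 core (GCGCATGC) was in 3.85% of covered against 2.71% of all promoters, CCAAT in 39.3% against 37.4%, and TATAAA in 12.8% against 13.6%. The AP-1 site (TGANTCA) was in 5.94% against 7.81%, the cyclic AMP response element (TGACGTCA) in 2.80% against 1.79%, and the TEAD motif (GGAATG) in 15.0% against 14.7%. None of these motifs contains another. Covered promoters had a median GC content of 61.0% against 52.7% over all, and a median observed over expected CpG of 0.750 against 0.384. Promoters under the other peaks of the list were not set beside them. The part of GC content in the motif shares was not tested. A match is a run of letters, not a measured binding site, and windows of 1 gene overlap where its starts lie close together.

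The broad peaks also covered 47 microRNA genes, of which 44 had mature sequences in the table. 3 seeds (bases 2 to 8, in capitals) were shared by covered genes and their 5p arms are printed because these are the only seeds that recur in the set. miR-125a and let-7e lie together on chromosome 17, and miR-125b-1 lies inside the 18818 bp peak over its host gene Mir100hg on chromosome 9.
miR-125a-5p: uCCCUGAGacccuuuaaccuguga
miR-125b-5p: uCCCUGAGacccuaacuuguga
miR-351-5p: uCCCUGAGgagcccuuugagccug
miR-106b-5p: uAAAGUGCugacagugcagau
miR-93-5p: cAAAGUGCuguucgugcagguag
let-7e-5p: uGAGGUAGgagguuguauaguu
let-7i-5p: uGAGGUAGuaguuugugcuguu
miR-125a-5p, miR-125b-5p and miR-351-5p share CCCUGAG, miR-106b-5p and miR-93-5p share AAAGUGC, and let-7e-5p and let-7i-5p share GAGGUAG. On GRCm38.p6 miR-125a-5p lies at chr17:17830817-17830840 (plus strand), miR-125b-5p at chr9:41581940-41581961 (plus strand) and miR-351-5p at chrX:53053315-53053338 (minus strand). miR-106b-5p lies at chr5:138165787-138165807 (minus strand) and miR-93-5p at chr5:138165574-138165596 (minus strand), and let-7e-5p lies at chr17:17830366-17830387 (plus strand) and let-7i-5p at chr10:122985698-122985719 (minus strand). The sequences are RefSeq's. Of the covered genes with a row below the count filter, 49 of 59 were short RNAs, a class that pools microRNA, small nucleolar and small cytoplasmic RNA genes. Some microRNA genes, among them Mir546 and Mir214, had a row that passed the filter and was tested. The files hold counts per transcript, and mature microRNA levels were not analysed here.

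The 632 peaks were 5008 to 36482 bp wide, with a median of 6699.5 bp, while the other 13365 peaks of the list had a median of 1657 bp. 96 were 10 kb or wider, 18 were 15 kb or wider and 5 were 20 kb or wider. They held 16.0% of the length of the list. At the threshold, the narrowest members were 5008 bp over Ccl2, 5010 bp in Sbds and Tmem248, and 5019 bp near Syt2, and the widest peaks just outside were 4998 bp at Itgb7, 4992 bp in Sf3b3 and 4990 bp at Ep300. The authors' peak score had a median of 829.585 in the broad peaks against 146.19 in the others, and 38 broad peaks carried a score of exactly 3100. Width and score come from the same peaks that the threshold selected, so both are descriptions. Peaks this wide were less frequent in the other lists: 150 of 27221 for LSD1 in LSD1-labelled cells at day 7, 30 of 8303 in control cells at day 7, 8 of 3024 in control cells at day 0, 0 of 1629 for Nrf1 at day 7 and 4 of 2078 for Nrf1 at day 0. Read depth, cut-off and input of the ChIP-seq lists are not given in the sources used here, and the part of these in peak width was not tested.

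**Figure D1:**
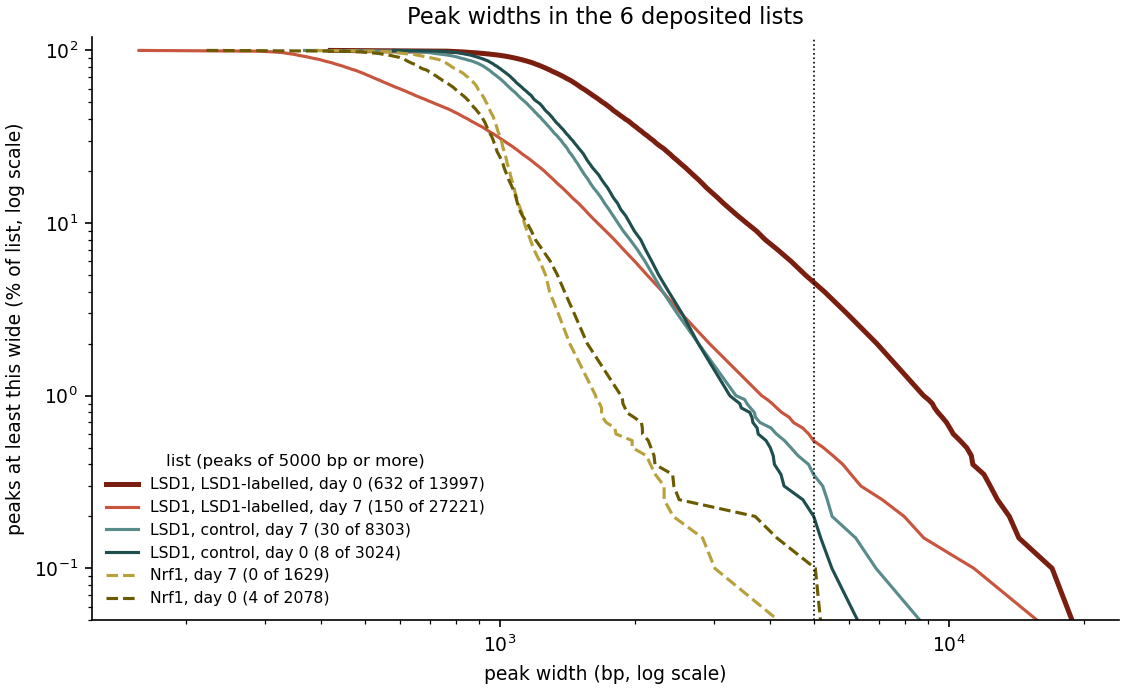
Share of peaks (%, log axis) at least as wide as the width on the horizontal axis (bp, log axis) in each of the 6 lists; the dotted line stands at 5000 bp and the legend gives the number of peaks at or beyond it. The list of LSD1-labelled cells at day 0, with 632 of 13997 peaks past the line, lies to the right of the other 5 over most of its range.

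421 of the 632 broad peaks (66.6%) held a start site, 168 (26.6%) lay in a gene without a start site, and 43 (6.80%) lay outside genes. The other peaks of the list split as 60.2%, 21.8% and 18.0%. The broad peaks, chosen for their width, also held the far end of a gene more often. Of the 421 with a start site, 260 (61.8%) also held a transcript end, against 7.44% of the other peaks with a start site. Of the 168 within a gene, 134 (79.8%) held a transcript end, against 24.8% of the other peaks of that kind. A wide interval holds both ends more easily than a narrow one, and the part of width alone was not tested. For genes of long RNAs, the peak reached a median of 4618 bp past the start into the gene and 1757 bp before it. The median covered gene had 69.9% of its length inside its peak, and in 242 of 544 pairs of a peak and a gene (44.5%) the gene lay wholly inside. For the other peaks these values were 4.24% and 1.95%. Genes at broad peaks were also shorter, with a median span of 6575 bp against 20872 bp at the other peaks. The part of gene length in these shares was not tested. Base composition over the whole peak was set against the other peaks of the list, not against all promoters. Median GC content was 49.7% in broad against 52.1% in other peaks, and median observed over expected CpG was 0.326 against 0.516. The other peaks reached a median of 832 bp past the start, and the part of this reach in base composition was not tested.

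Several long genes carried a chain of broad peaks. Mmp2, a gelatinase that cuts matrix collagen, had 98.7% of its length under 3 of them. Col3a1, the chain of fibrillar type III collagen, had 95.9% of its 38169 bp under 2. Fstl1, a secreted follistatin-like glycoprotein, Nedd4, a ubiquitin ligase, and Plpp3, a lipid phosphatase, each carried 4. In all, 77 genes were touched by 2 or more broad peaks, 12 by 3 or more, and 258 had at least 90% of their length under broad peaks. On the side of several genes in 1 peak, 143 broad peaks held the start sites of 2 or more genes and 44 of 3 or more. The highest number was 7, as in the peak of 8712 bp over the ribosomal protein gene Rpl23a, its neighbours Nek8 and Tlcd1 and several small nucleolar RNAs.

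The widest broad peak, 36482 bp at chr19:5816061-5852542, covered all of Neat1, the long non-coding RNA that builds nuclear paraspeckles. The second, 33372 bp at chr1:45324639-45358010, lay in the body of Col3a1. Next came 24531 bp at chr3:107736589-107761119 over Csf1, the growth factor of macrophages, and 20646 bp at chr11:94935517-94956162 over Col1a1, the main chain of type I collagen. 20375 bp at chr19:5479344-5499718 covered Cfl1, the actin-severing protein cofilin, together with Mus81, a DNA repair nuclease. A peak of 19477 bp covered Thbs1, a matrix glycoprotein that activates TGF-beta, with the non-coding Gm13986, and one of 19290 bp covered Amotl2, a scaffold of cell junctions that binds YAP. Cxcl12, the chemokine of stem cell niches, lay under 18752 bp and F3, the tissue factor that starts clotting, under 17893 bp. The peak of 17688 bp at Lpcat2, a lysophospholipid acyltransferase, ran back over the end of Mmp2, and the one of 17320 bp covered Brd2, a bromodomain reader of acetylated histones, with its neighbour H2-DMa.

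In the other LSD1 lists the same places were mostly marked by shorter peaks. 547 of the 632 (86.6%) shared at least 1 bp with a peak of LSD1-labelled cells at day 7, 403 (63.8%) with one of control cells at day 7 and 248 (39.2%) with one of control cells at day 0. The other peaks of the list were matched in 74.6%, 49.98% and 18.3%, and a longer interval meets 1 bp more easily. Matched by at least 50% of their length were 257, 83 and 18 of the broad peaks in the same order of lists. The widest overlapping peak had a median width of 1942 bp in LSD1-labelled cells at day 7, 1717 bp in control cells at day 7 and 1542 bp in control cells at day 0. Many broad peaks met 2 or more separate peaks of another list: 395, 112 and 35 in the same order of lists. The highest number was 10, in LSD1-labelled cells at day 7, a list with a median peak width of 707 bp. 236 broad peaks (37.3%) met a peak in all 3 other LSD1 lists and 83 (13.1%) in none. Nrf1 peaks met 59 broad peaks (9.34%) at day 7 and 60 (9.49%) at day 0, against 10.2% and 9.59% of the other peaks of the list.

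A peak of 5000 bp or more stood at the same place in 54 cases in LSD1-labelled cells at day 7, in 26 in control cells at day 7 and in 7 in control cells at day 0. In all 3 lists it did so at Brd2 with H2-DMa, at Plin4, which coats lipid droplets, and at the pseudogene Pisd-ps2, whose reads may be shared with near-identical copies. Csf1 stood at the other extreme: 7.65% of its peak was covered in LSD1-labelled cells at day 7, 7.49% in control cells at day 7 and none in control cells at day 0. The 11278 bp peak at chr12:109452978-109464255 over Dlk1, the secreted inhibitor of adipogenesis that marks preadipocytes, met no peak in any other LSD1 list. The 6392 bp peak at the start of Atf5 was covered to 73.0% at day 7 in LSD1-labelled cells, 19.01% at day 7 in control cells and 17.0% at day 0 in control cells.

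**Figure D2:**
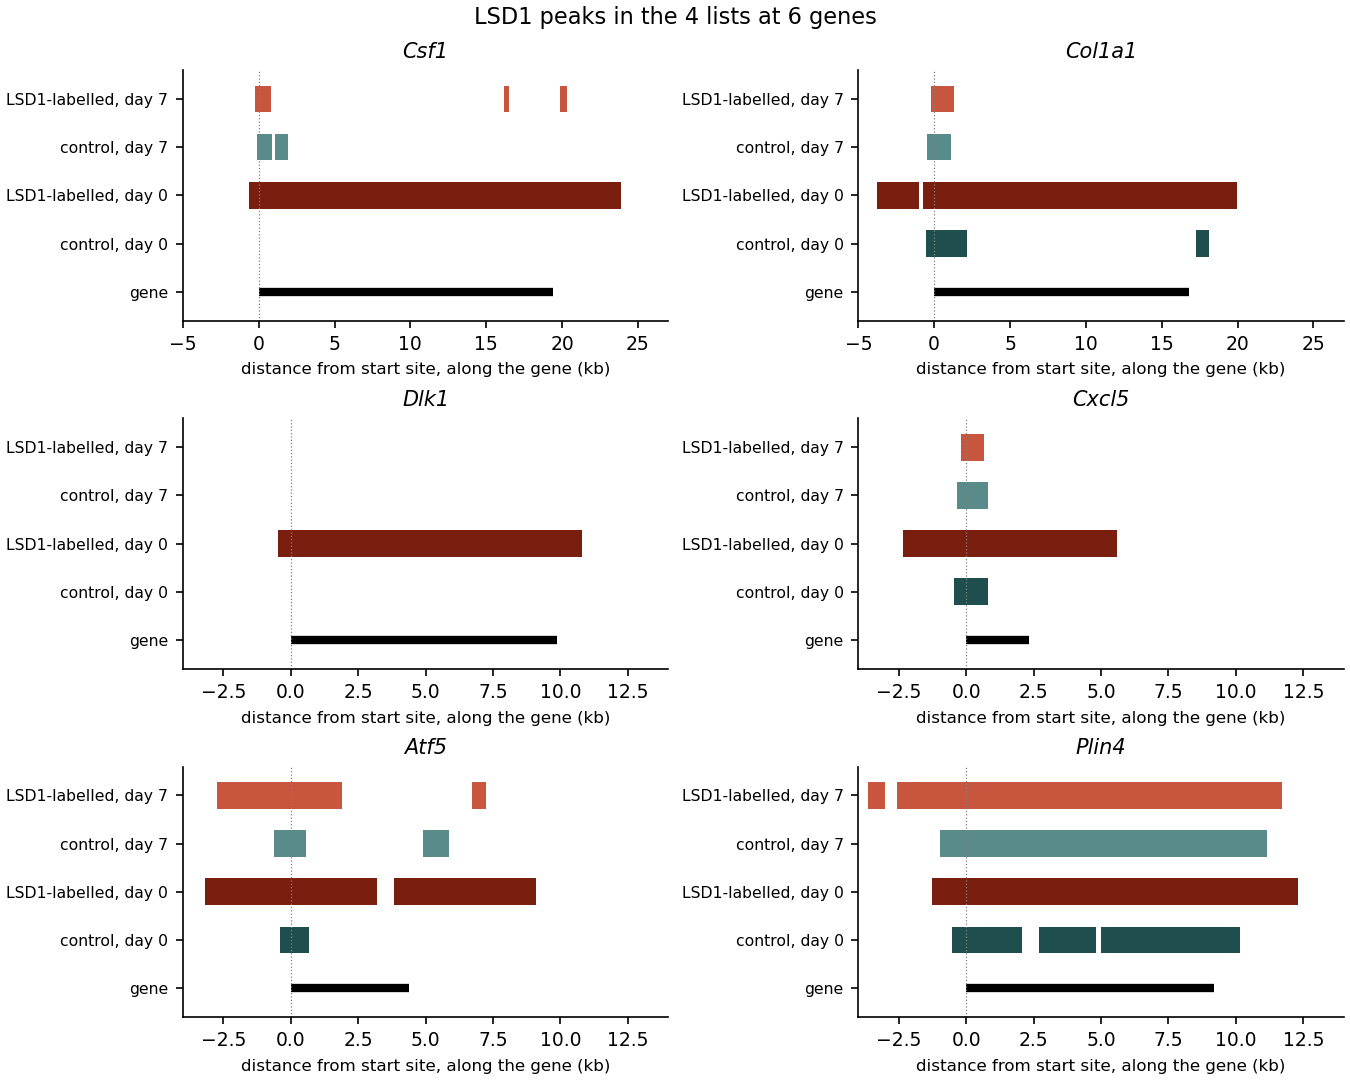
LSD1 peaks (bars) in the 4 LSD1 lists at 6 genes, against distance from the start site along the gene (kb); the black bar is the gene. At Csf1, Col1a1 and Cxcl5 a long bar in LSD1-labelled cells at day 0 stands beside short bars, mostly at the start, in other lists, at Dlk1 it stands alone, and at Plin4 long bars appear in several lists.

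631 genes were covered: 466 of mRNA, 64 of long non-coding RNA, 47 of microRNA, 43 of small nucleolar RNA, 10 other transcripts and 1 small cytoplasmic RNA. 585 had a row in the count files and 46 did not. 526 passed the filter on low counts and were tested, and 59 did not. Library totals were 27512273 to 37565527 counts. Replicate 1 of the LSD1-labelled cells at day 0 stood apart: its correlation with the other 2 replicates was 0.955 and 0.957, against 0.993 between those. Kdm1a itself had 54.3, 55.4 and 54.4 CPM (counts per 1e6 reads, with library sizes scaled by edgeR's TMM factors) in LSD1-labelled cells and 66.1, 67.6 and 74.5 CPM in control cells at day 7, and 89.4, 104 and 99.0 CPM in LSD1-labelled cells against 79.0, 86.3 and 84.1 CPM in control cells at day 0. The LSD1-labelled libraries were the lower at day 7 and the higher at day 0, with no overlap in either case. The log2 difference was -0.34 ± 0.10 (SE) at day 7 (edgeR adjusted p = 0.0075) and 0.23 ± 0.10 at day 0 (adjusted p = 0.097; 0.29 and 0.013 without replicate 1 of the LSD1-labelled cells at day 0), so the cells are called LSD1-labelled throughout. The summed level of 7 adipocyte markers was 18441 to 22224 CPM in LSD1-labelled and 5039 to 6842 CPM in control libraries at day 7, against 42.3 to 51.1 CPM in LSD1-labelled and 68.1 to 86.9 CPM in control libraries at day 0. That of 8 preadipocyte and fibroblast markers was 1859.56 to 2055 CPM in LSD1-labelled and 13921 to 14821 CPM in control libraries at day 7, against 26049 to 28918 CPM in LSD1-labelled and 48993 to 52431 CPM in control libraries at day 0. Col1a1, Col3a1 and Dlk1 are among those 8 markers and are covered genes as well. Summed macrophage markers reached at most 2.06 CPM. Summed muscle markers were 33.5 to 44.1 CPM in LSD1-labelled and 12.7 to 15.6 CPM in control libraries at day 7, against 6.83 to 17.6 CPM in LSD1-labelled and 4.16 to 5.59 CPM in control libraries at day 0, and the part of these in the results was not tested. In these lists the defining genes Adgre1, Myod1, Myog and Acan were at 0 in all libraries. In bulk RNA, fewer cells of a type and less RNA per cell cannot be told apart.

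Covered genes were highly expressed. Per kb of transcript, 48.9% of the 523 covered genes with a known length stood in the top 25% of all genes tested in LSD1-labelled cells at day 7, 57.2% in control cells at day 7, 61.2% in LSD1-labelled cells at day 0 and 59.1% in control cells at day 0. Genes with a start site in another peak of the list did so in 31.1%, 30.9%, 30.9% and 30.9%. The median level of covered genes was 26.7, 30.1, 40.3 and 34.0 CPM per kb in the same order of groups, against 8.77, 9.45, 9.33 and 9.26 CPM per kb over all genes tested.

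LSD1-labelled against control cells at day 7 asks what the genes under these peaks did when both had been induced. 360 of the 526 tested covered genes passed the test (edgeR's quasi-likelihood test, Benjamini-Hochberg adjusted over 13356 genes, threshold 0.05), 172 higher and 188 lower, which is 68.4% against a background of 63.6% of all genes called (30.2% higher, 33.4% lower). The share lies near the background. The median log2 change was 0.03 over covered genes and -0.05 over all genes tested.

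At day 0 the question is what the label changed in the cells from which the peaks were called. 189 of 526 covered genes passed (35.9%), 122 higher and 67 lower, against a background of 25.8% (12.8% higher, 13.0% lower). The median log2 change was 0.10 over covered genes and 0.00 over all genes. Without replicate 1 of the LSD1-labelled cells at day 0, 311 covered genes passed, 157 higher (29.7%) and 154 lower (29.1%), against 48.6% of all genes (22.6% higher, 25.96% lower).

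Day 7 against day 0 asks how covered genes changed during differentiation. In LSD1-labelled cells 386 of 526 passed, 142 higher and 244 lower, against a background of 69.8% (32.6% higher, 37.2% lower), with a median of -0.31 over covered genes and -0.07 over all. In control cells 299 passed, 105 higher and 194 lower, against a background of 48.3% (23.7% higher, 24.6% lower), with a median of -0.18 over covered genes and -0.01 over all. Lower calls thus outnumbered higher ones in both kinds of cell, by 244 to 142 and by 194 to 105. The change differed between the 2 kinds of cell (label by day interaction) for 323 covered genes, 129 higher and 194 lower, against a background of 51.9% (23.9% higher, 28.1% lower). Without replicate 1 of the LSD1-labelled cells at day 0 the 386 became 426 (169 higher, 257 lower), against 76.2% of all genes.

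**Figure D3:**
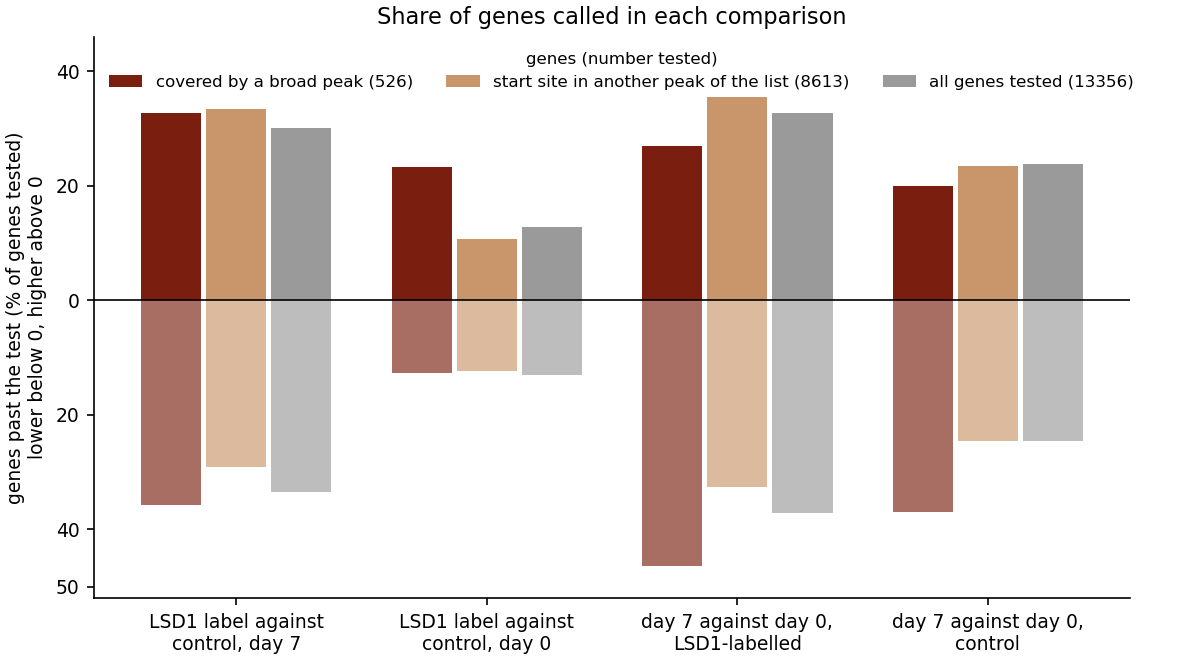
Share of genes past the test (%) in 4 comparisons, higher above 0 and lower below 0, for covered genes (526 tested), genes with a start site in another peak of the list (8613 tested) and all genes tested (13356). The lower share of covered genes is 46.4% for day 7 against day 0 in LSD1-labelled cells and 36.9% in control cells, reaching further below 0 than the 37.2% and 24.6% of all genes.

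Covered matrix genes were mostly lower, and so were the uncovered genes of the same list. Over all genes, 526 of the 13356 tested were covered, the share to set beside the covered counts of this and later lists. Of 38 genes of a list of preadipocyte, fibroblast and matrix genes, 12 were covered, and all 12 were tested. In LSD1-labelled against control cells 11 of the 12 were lower and 0 higher at day 7 (median -1.39), where 33.4% of all genes were lower, and 8 were lower and 0 higher at day 0 (median -0.84), where 13.0% were. Of the 26 uncovered genes of the list, 22 were lower and 1 higher at day 7 (median -2.27), and 12 were lower and 2 higher at day 0 (median -0.49). At day 7 against day 0, 12 covered genes were lower in LSD1-labelled cells (median -1.79; 37.2% of all genes) and 10 in control cells (median -1.13; 24.6% of all genes). The label by day interaction was lower for 7 and higher for 1. Without replicate 1 of the LSD1-labelled cells at day 0, 11 were lower and 1 higher at day 0, and 11 were lower at day 7 against day 0 in LSD1-labelled cells.

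Col1a1 had 147, 165 and 179.6 CPM in LSD1-labelled cells at day 7 and 3046, 2954 and 3079 CPM in control cells at day 7. At day 0 it had 6361, 5307 and 4678 CPM in LSD1-labelled cells and 11102, 11482 and 12269 CPM in control cells. All 3 LSD1-labelled libraries lay below all 3 control libraries at both days, and both kinds of cell were lower at day 7. The log2 difference between LSD1-labelled and control cells was -4.21 ± 0.15 (SE) at day 7 and -1.09 ± 0.13 at day 0 (edgeR adjusted p = 4.29e-10 and 7.64e-05). Day 7 against day 0 it was -5.05 ± 0.15 in LSD1-labelled and -1.94 ± 0.13 in control cells. Col3a1 had 917, 899 and 903 CPM in LSD1-labelled and 1978, 1805 and 2262 CPM in control cells at day 7, and 1872, 2323 and 2177 CPM in LSD1-labelled against 7352, 7631 and 7952 CPM in control cells at day 0. It too was lower in every LSD1-labelled library, by -1.15 ± 0.12 at day 7 and -1.85 ± 0.12 at day 0 (adjusted p = 2.51e-06 and 7.90e-07). Sparc, a collagen-binding matrix protein under 7370 bp, had 722, 774 and 904 CPM in LSD1-labelled and 2070.3, 2020.1 and 2166 CPM in control cells at day 7, and 3061, 1796 and 1720.1 CPM in LSD1-labelled against 5376, 6332 and 5567 CPM in control cells at day 0. Its groups did not overlap, and its difference was -1.38 ± 0.19 at day 7 and -1.39 ± 0.19 at day 0 (adjusted p = 4.20e-05 and 2.68e-04). Without replicate 1 of the LSD1-labelled cells at day 0 the day 0 difference was -1.71, and the interaction, 0.01 with that library (adjusted p = 0.98), was 0.33 (adjusted p = 0.043).

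Dlk1 had 9.98, 13.7 and 20.8 CPM in LSD1-labelled and 1115, 1239.9 and 969 CPM in control cells at day 7. At day 0 it had 7080.2, 3979 and 4182 CPM in LSD1-labelled and 9335, 10663 and 9959.6 CPM in control cells; the LSD1 list of those control cells has no peak at the gene. The log2 difference was -6.22 ± 0.31 at day 7 (edgeR adjusted p = 5.94e-09) and -0.97 ± 0.25 at day 0 (adjusted p = 0.013; -0.85 and 0.050 without replicate 3 of the LSD1-labelled cells at day 0). Day 7 against day 0 it fell by 8.42 on the log2 scale in LSD1-labelled cells, the largest fall of the 526 covered genes tested. Thbs1 had 20.5, 19.7 and 16.0 CPM in LSD1-labelled and 40.04, 39.5 and 38.7 CPM in control cells at day 7, and 308, 464 and 411 CPM in LSD1-labelled against 324, 298 and 335 CPM in control cells at day 0. It was -1.07 ± 0.15 at day 7 (adjusted p = 3.43e-05), and at day 0 the groups overlapped (0.31 ± 0.14, adjusted p = 0.13; 0.46 and 6.8e-04 without replicate 1 of the LSD1-labelled cells). Reads of the overlapping Gm13986 cannot be told from those of Thbs1 where counting ignored the strand, which is not given in the sources used here.

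4 further genes, named for their large changes or wide peaks, were lower in LSD1-labelled cells at day 7. Adamts1, a protease of matrix proteoglycans under 13803 bp, had 20.4, 23.7 and 21.7 CPM in LSD1-labelled and 442, 371 and 429 CPM in control cells at day 7, and 135, 361 and 354 CPM in LSD1-labelled against 919, 841 and 924 CPM in control cells at day 0. The LSD1-labelled libraries were the lower at both days, by -4.24 ± 0.31 and -1.66 ± 0.27 (edgeR adjusted p = 1.21e-07 and 8.53e-04). Cdh11, a mesenchymal cadherin under 7638 bp, had 6.07, 6.97 and 5.59 CPM in LSD1-labelled and 402, 386 and 361 CPM in control cells at day 7, and 445, 697 and 661 CPM in LSD1-labelled against 1092, 1121 and 1123 CPM in control cells at day 0. Its log2 difference was -5.95 ± 0.19 at day 7 and -0.89 ± 0.15 at day 0, with no overlap at either day (adjusted p = 1.94e-10 and 9.44e-04). Sned1, a matrix protein with sushi and EGF-like domains under 14534 bp, had 1.38, 2.32 and 3.00 CPM in LSD1-labelled and 270.2, 184 and 244 CPM in control cells at day 7, and 51.0, 269.7 and 247 CPM in LSD1-labelled against 329, 195 and 280.1 CPM in control cells at day 0. Its difference at day 7, -6.69 ± 0.60, was the largest fall of the 526 covered genes tested (adjusted p = 8.01e-07), while at day 0 the groups overlapped (-0.50 ± 0.44, adjusted p = 0.44). Lpcat2, whose peak reaches back over the end of Mmp2, had 0.386, 0.103 and 0.259 CPM in LSD1-labelled and 12.5, 11.5 and 12.1 CPM in control cells at day 7, with 22.0, 11.1 and 9.46 CPM in LSD1-labelled against 19.6, 13.1 and 17.0 CPM in control cells at day 0. It differed by -5.58 ± 0.44 at day 7 (adjusted p = 2.53e-07).

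Csf1, Cxcl12 and F3 are signalling genes under some of the widest peaks. Csf1 had 33.4, 39.7 and 36.3 CPM in LSD1-labelled and 283, 292 and 266 CPM in control cells at day 7. At day 0 it had 664, 755 and 703 CPM in LSD1-labelled and 475, 404 and 438 CPM in control cells. The label therefore went with a lower level at day 7 and a higher one at day 0, and no libraries overlapped at either day. The log2 differences were -2.94 ± 0.11 and 0.69 ± 0.10 (edgeR adjusted p = 5.92e-10 and 4.71e-04). Cxcl12 had 18.1, 17.5 and 25.7 CPM in LSD1-labelled and 803, 739 and 789 CPM in control cells at day 7, and 829, 725 and 761 CPM in LSD1-labelled against 1201, 1386 and 1245 CPM in control cells at day 0. It was lower in the LSD1-labelled libraries at both days, by -5.25 ± 0.16 and -0.73 ± 0.14 (adjusted p = 1.94e-10 and 0.0021). F3 had 46.2, 47.0 and 37.6 CPM in LSD1-labelled and 259.7, 260.3 and 241 CPM in control cells at day 7, and 147, 269 and 290.0 CPM in LSD1-labelled against 277, 289 and 265 CPM in control cells at day 0, where the groups overlapped. Only its day 7 difference passed, at -2.54 ± 0.21 (adjusted p = 3.58e-07; day 0 -0.24 ± 0.20 and 0.41).

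Of 19 genes of an inflammation list, 6 were covered and tested, and 6 of 6 were lower in LSD1-labelled cells at day 7 (median -3.33), against 33.4% of all genes. At day 0, 5 were higher and 1 lower (median 1.31, and 0.82 without replicate 1 of the LSD1-labelled cells), against 12.8% of all genes higher. The 12 uncovered genes tested gave 8 lower and 1 higher at day 7, and 9 higher and 2 lower at day 0. Cxcl5 and Cxcl1, chemokines that draw neutrophils, showed the switch most clearly. Cxcl5 had 2.21, 1.81 and 2.17 CPM in LSD1-labelled and 44.6, 57.8 and 37.2 CPM in control cells at day 7, and 364, 394 and 431 CPM in LSD1-labelled against 10.4, 7.73 and 8.41 CPM in control cells at day 0. LSD1-labelled libraries were the lower at day 7 and the higher at day 0, in 3 of 3 each. The log2 difference was -4.49 ± 0.20 at day 7 and 5.48 ± 0.19 at day 0 (edgeR adjusted p = 1.93e-09 and 7.80e-09). Cxcl1 had 16.9, 19.1 and 14.3 CPM in LSD1-labelled and 44.3, 53.1 and 42.0 CPM in control cells at day 7, and 109, 133 and 152 CPM in LSD1-labelled against 10.1, 7.81 and 8.61 CPM in control cells at day 0. It moved in the same 2 directions, by -1.47 ± 0.16 and 3.89 ± 0.18 (adjusted p = 4.69e-06 and 5.10e-08). Ccl2, the monocyte chemokine under the narrowest member, had 4.8, 3.51 and 2.9 CPM in LSD1-labelled and 71.0, 89.5 and 78.5 CPM in control cells at day 7, and 570.0, 194 and 244 CPM in LSD1-labelled against 100.1, 115 and 77.4 CPM in control cells at day 0. Its day 0 difference of 1.78 ± 0.33 became 1.16 without replicate 1 of the LSD1-labelled cells, where the level was highest, and its day 7 difference was -4.42 ± 0.39 (adjusted p = 7.18e-07). The interferon list had 16 genes, 3 of them covered, and all 3 were lower in LSD1-labelled cells at day 7 and higher at day 0. Of its 13 uncovered genes 10 were lower and 1 higher at day 7, and 12 were higher and 0 lower at day 0.

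Ifit1, an interferon-induced protein that binds foreign RNA, had 0.827, 0.826 and 0.621 CPM in LSD1-labelled and 38.1, 34.3 and 45.2 CPM in control cells at day 7. At day 0 it had 305, 96.7 and 103 CPM in LSD1-labelled and 11.5, 12.7 and 18.5 CPM in control cells. Replicate 1 of the LSD1-labelled cells at day 0 was the highest library, and LSD1-labelled and control libraries did not overlap at either day. The log2 difference was -5.69 ± 0.51 at day 7 and 3.56 ± 0.39 at day 0 (edgeR adjusted p = 7.88e-07 and 5.01e-05), the second being 2.81 without replicate 1. Its family member Ifit3 had 0.331, 0.465 and 0.828 CPM in LSD1-labelled and 21.3, 16.7 and 26.5 CPM in control cells at day 7, and 197, 50.9 and 57.3 CPM in LSD1-labelled against 13.5, 11.2 and 15.0 CPM in control cells at day 0. Isg15, a ubiquitin-like modifier, had 0.993, 0.671 and 1.24 CPM in LSD1-labelled and 9.53, 11.0 and 13.9 CPM in control cells at day 7, and 96.6, 19.3 and 21.2 CPM in LSD1-labelled against 4.08, 5.28 and 5.55 CPM in control cells at day 0. The same replicate was highest for both, and the day 0 differences of 2.94 ± 0.44 for Ifit3 and 3.20 ± 0.53 for Isg15 were both 2.03 without it. Day 7 against day 0 in LSD1-labelled cells, Ifit1 changed by -7.79 ± 0.53 (-7.03 without that replicate), Ifit3 by -7.53 ± 0.62 (-6.62), Isg15 by -5.55 ± 0.64 (-4.38) and Ccl2 by -6.49 ± 0.42 (-5.88). Ifit1 lies beside its near copy Ifit1bl2, so reads of the 2 may be shared. Ifit1 and Ifit3 met no peak in any other LSD1 list.

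The long non-coding RNA list was covered more than any other list, 9 of its 13 members: Neat1, Malat1, Dnm3os and the small nucleolar RNA hosts Gas5, Snhg1, Snhg3, Snhg5, Snhg12 and Snhg15. In LSD1-labelled against control cells, 6 of the 9 were lower and 0 higher at day 7 (median -1.13; 33.4% of all genes lower), and 5 were higher and 0 lower at day 0 (median 1.01; 12.8% of all genes higher). At day 7 against day 0, 8 were lower in LSD1-labelled cells (37.2% of all genes) and 5 were higher in control cells (23.7% of all genes). Neat1 had 381, 296 and 153 CPM in LSD1-labelled and 589, 536 and 689 CPM in control cells at day 7, and 197, 377 and 385 CPM in LSD1-labelled against 255, 98.1 and 139 CPM in control cells at day 0. The day 7 groups did not overlap and the day 0 groups did. The difference was -1.13 ± 0.37 at day 7 (edgeR adjusted p = 0.018), a call lost without replicate 3 of the LSD1-labelled cells at day 7 (-0.83, 0.079) or replicate 3 of the control cells at day 7 (-1.02, 0.058). Malat1, a nuclear speckle RNA under 12733 bp, had 456, 307 and 159 CPM in LSD1-labelled and 1422, 1279.9 and 1597 CPM in control cells at day 7, and 1026, 854 and 762 CPM in LSD1-labelled against 754, 238 and 321 CPM in control cells at day 0. It was -2.22 ± 0.41 at day 7 (adjusted p = 4.09e-04). At day 0 the difference was 1.01 ± 0.40 (adjusted p = 0.081), and it passed in a fit with the replicate number as a block (1.13, 0.028). It also passed without replicate 1 of the control cells, the highest of that group (1.65, 0.0074). In control cells Malat1 changed by 1.71 ± 0.40 day 7 against day 0, and by 2.36 without that replicate.

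Among covered microRNA hosts, Mir100hg and Dnm3os were lower in LSD1-labelled cells at day 7, while Mir22hg did not pass (0.11 ± 0.16, edgeR adjusted p = 0.56). Mir100hg, host of miR-125b-1 and let-7a-2, had 0.717, 1.03 and 0.983 CPM in LSD1-labelled and 18.8, 22.9 and 20.9 CPM in control cells at day 7, and 93.5, 89.8 and 84.5 CPM in LSD1-labelled against 74.3, 23.0 and 44.2 CPM in control cells at day 0. It was -4.51 ± 0.40 at day 7 (edgeR adjusted p = 7.07e-07) and fell by 6.60 on the log2 scale in LSD1-labelled cells. The day 0 difference of 0.92 ± 0.29 (adjusted p = 0.035) was lost in 7 of the fits that left out 1 library, among them replicate 1 of the LSD1-labelled cells at day 0 (0.88, 0.089). Dnm3os, host of miR-199a-2 and miR-214 on the strand opposite Dnm3, had 4.41, 3.2 and 1.6 CPM in LSD1-labelled and 82.4, 76.6 and 84.6 CPM in control cells at day 7, and 71.0, 100.2 and 87.4 CPM in LSD1-labelled against 78.1, 27.7 and 49.9 CPM in control cells at day 0. Its day 7 difference was -4.73 ± 0.39 (adjusted p = 3.94e-07), and its day 0 difference of 0.73 ± 0.32 (adjusted p = 0.11) passed without replicate 1 of the control cells (1.15, 0.024).

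Of 17 genes of the integrated stress response and amino acid list, 5 were covered (Ddit3, Atf4, Vegfa, Slc3a2 and Ddit4), and all 5 were higher in LSD1-labelled cells at day 7 (median 1.40; 30.2% of all genes higher) and at day 0 (median 1.10; 12.8%). Of the 12 uncovered genes of the list, 11 were higher and 1 lower at day 7, and 6 were higher and 0 lower at day 0. Atf4, the central activator of that response, had 825, 788 and 823 CPM in LSD1-labelled and 195, 257 and 220.3 CPM in control cells at day 7, and 381, 572 and 576 CPM in LSD1-labelled against 345, 372 and 343 CPM in control cells at day 0. The day 7 difference was 1.86 ± 0.16 (edgeR adjusted p = 4.19e-07). The day 0 difference, 0.53 ± 0.15 (adjusted p = 0.022), was lost without replicate 2 (0.44, 0.075) or 3 (0.43, 0.090) of the LSD1-labelled cells or replicate 1 (0.51, 0.073) or 3 (0.50, 0.081) of the control cells at day 0. Ddit3, the pro-apoptotic factor CHOP under 13357 bp, had 353, 312 and 314 CPM in LSD1-labelled and 60.3, 87.7 and 70.0 CPM in control cells at day 7, and 77.8, 131 and 143 CPM in LSD1-labelled against 52.6, 60.7 and 51.2 CPM in control cells at day 0. It was higher in every LSD1-labelled library at both days, by 2.17 ± 0.21 and 1.10 ± 0.20 (adjusted p = 1.29e-06 and 0.0018). Atf5, a bZIP factor induced in the same response, had 955, 1040.4 and 1185 CPM in LSD1-labelled and 179.6, 208 and 181 CPM in control cells at day 7, and 476, 504 and 523 CPM in LSD1-labelled against 494, 527 and 509.8 CPM in control cells at day 0. The groups were apart at day 7 and overlapped at day 0 (2.48 ± 0.11, adjusted p = 2.15e-09, and -0.03 ± 0.11, adjusted p = 0.88). Il4i1b, whose start lies in the same peak, had 58.6, 56.0 and 62.8 CPM in LSD1-labelled and 7.62, 13.0 and 6.66 CPM in control cells at day 7, but it overlaps its neighbours and its reads may belong to them.

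Immediate early and AP-1 factors were the second most covered list, 19 of 39, and they did not move as one. At day 7, 5 were higher and 8 lower in LSD1-labelled cells (median -0.18; 30.2% and 33.4% of all genes), and at day 0, 12 were higher and 3 lower (median 0.68; 12.8% and 13.0% of all genes). The 20 uncovered genes gave 6 higher and 2 lower at day 0 (median 0.02). Jund, an AP-1 subunit under 6438 bp, had 275, 337 and 416 CPM in LSD1-labelled and 79.3, 80.8 and 68.0 CPM in control cells at day 7, and 186, 199.95 and 205 CPM in LSD1-labelled against 115, 120.4 and 130.2 CPM in control cells at day 0. It was higher in all LSD1-labelled libraries at both days, by 2.17 ± 0.14 and 0.69 ± 0.14 (edgeR adjusted p = 5.37e-08 and 0.003). Zfp36l1, which destabilises AU-rich mRNAs, lay under 12622 bp and had 117, 112 and 111 CPM in LSD1-labelled and 432, 437 and 344 CPM in control cells at day 7, and 419.9, 682 and 610.2 CPM in LSD1-labelled against 340.4, 296 and 323 CPM in control cells at day 0. It was lower at day 7 and higher at day 0, by -1.84 ± 0.16 and 0.84 ± 0.16 (adjusted p = 7.22e-07 and 0.0023). Brd2 had 487, 494 and 548 CPM in LSD1-labelled and 352, 370.4 and 320.0 CPM in control cells at day 7, and 370.1, 450.1 and 427 CPM in LSD1-labelled against 442, 413 and 436 CPM in control cells at day 0. Its difference was 0.55 ± 0.11 at day 7 (adjusted p = 4.99e-04) and -0.05 ± 0.10 at day 0, where the groups overlapped (adjusted p = 0.77).

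**Figure D4:**
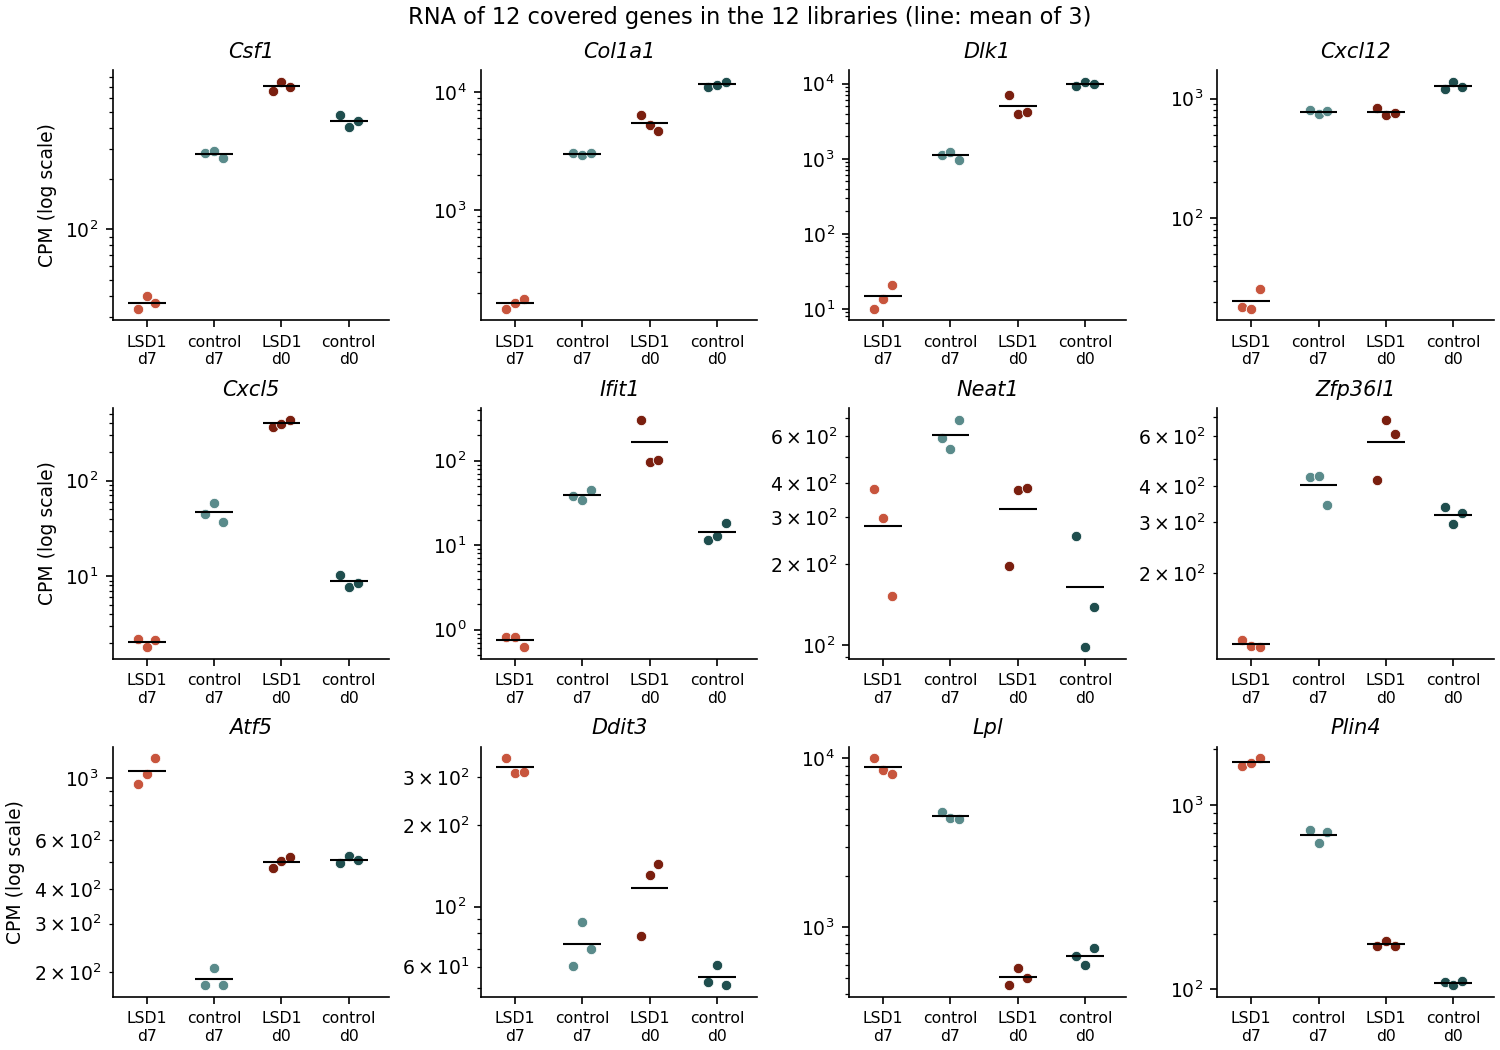
Level (CPM, log axis) of 12 covered genes in the 12 libraries, 3 points per group with a line at their mean; groups are LSD1-labelled and control cells at day 7, then LSD1-labelled and control cells at day 0. Csf1, Cxcl5 and Ifit1 are lower in LSD1-labelled than in control cells at day 7 and higher at day 0, Dlk1 and Col1a1 are lower at both days, and Lpl and Plin4 are high at day 7 in both kinds of cell.

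Most covered cytoskeletal genes were lower at day 7 than at day 0 in both kinds of cell. 10 of 26 genes of the actin and contraction list were covered, and at day 7 against day 0, 9 were lower and 1 higher in LSD1-labelled cells (median -1.15; 37.2% of all genes lower) and 10 were lower in control cells (median -1.45; 24.6%). Of the 15 uncovered genes tested, 14 were lower in LSD1-labelled and 15 in control cells. Acta2, the smooth muscle actin of contractile fibroblasts, had 9.71, 12.0 and 15.7 CPM in LSD1-labelled and 58.5, 67.2 and 62.2 CPM in control cells at day 7, and 1183, 583 and 622 CPM in LSD1-labelled against 1263, 1444 and 1195 CPM in control cells at day 0. It fell by 6.00 on the log2 scale in LSD1-labelled and by 4.38 in control cells (edgeR adjusted p = 1.76e-09 and 7.24e-08). Cfl1 had 444, 453 and 503 CPM in LSD1-labelled and 414, 454 and 449.8 CPM in control cells at day 7, and 1286, 874 and 844 CPM in LSD1-labelled against 1046, 1152 and 1103 CPM in control cells at day 0. It fell by 1.10 in LSD1-labelled and 1.33 in control cells. Without replicate 1 of the LSD1-labelled cells at day 0 the change in LSD1-labelled cells was -0.88. The interaction of Cfl1, 0.22 with that library (edgeR adjusted p = 0.39), was then 0.45 (adjusted p = 0.0031). Its neighbour Mus81 did not follow it. Mus81 had 44.2, 47.5 and 61.1 CPM in LSD1-labelled and 14.3, 13.0 and 12.1 CPM in control cells at day 7, and 21.7, 22.8 and 22.9 CPM in LSD1-labelled against 13.7, 13.3 and 15.6 CPM in control cells at day 0. It rose by 1.18 ± 0.14 in LSD1-labelled cells (adjusted p = 5.50e-06) and was -0.12 ± 0.14 in control cells (adjusted p = 0.52). Actb, cytoplasmic actin under 10531 bp, had 1772, 1834 and 1978 CPM in LSD1-labelled and 1553, 1709 and 1263 CPM in control cells at day 7, and 4943, 2861 and 2764 CPM in LSD1-labelled against 3302, 3686 and 4044 CPM in control cells at day 0. It fell by 0.92 in LSD1-labelled and 1.29 in control cells. Without replicate 1 of the LSD1-labelled cells at day 0, where Actb was highest, the change in LSD1-labelled cells was -0.60. The interaction of Actb, 0.37 with that library (edgeR adjusted p = 0.30), was then 0.69 (adjusted p = 5.8e-04). Amotl2 had 183, 193 and 202 CPM in LSD1-labelled and 126, 117 and 119.9 CPM in control cells at day 7, and 194, 223 and 212 CPM in LSD1-labelled against 202, 191 and 205 CPM in control cells at day 0. Its fall passed in control cells (-0.72 ± 0.09, adjusted p = 3.81e-05) and not in LSD1-labelled cells (-0.12 ± 0.09, adjusted p = 0.25), and the interaction was 0.60 ± 0.13 (adjusted p = 0.0018).

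Of 20 genes of the adipocyte program 2 were covered, Lpl and Plin4, and both were higher at day 7 than at day 0 in both kinds of cell, as did 16 of the 17 uncovered genes tested. Lpl, the lipase that loads fat cells from circulating triglyceride, had 10026, 8558 and 8061 CPM in LSD1-labelled and 4792, 4441 and 4352 CPM in control cells at day 7, and 453, 572 and 502 CPM in LSD1-labelled against 679, 594 and 757 CPM in control cells at day 0. Plin4 had 1617, 1694 and 1796 CPM in LSD1-labelled and 727, 623 and 711 CPM in control cells at day 7, and 172, 183 and 172 CPM in LSD1-labelled against 109.6, 105 and 110.4 CPM in control cells at day 0. Both were far above their day 0 level in every day 7 library, and higher again in LSD1-labelled than in control cells at day 7. Day 7 against day 0, Lpl rose by 4.13 ± 0.15 in LSD1-labelled and 2.74 ± 0.14 in control cells, and Plin4 by 3.28 ± 0.10 in LSD1-labelled and 2.66 ± 0.10 in control cells (edgeR adjusted p = 1.05e-10 and 1.30e-08 for Lpl, and 4.33e-11 and 1.24e-09 for Plin4). Pim3, a serine/threonine kinase under 7266 bp, had 422, 462 and 569 CPM in LSD1-labelled and 143, 133 and 156 CPM in control cells at day 7, and 47.4, 36.7 and 44.0 CPM in LSD1-labelled against 21.5, 24.4 and 25.7 CPM in control cells at day 0. It rose by 3.50 ± 0.15 in LSD1-labelled and 2.59 ± 0.14 in control cells. Gpx4, which reduces lipid peroxides, lay under 7314 bp and had 145, 145 and 166 CPM in LSD1-labelled and 37.6, 37.3 and 31.9 CPM in control cells at day 7, and 35.4, 16.8 and 28.7 CPM in LSD1-labelled against 24.5, 32.2 and 20.9 CPM in control cells at day 0. Its rise passed in LSD1-labelled cells (2.50 ± 0.24, adjusted p = 7.47e-07) and not in control cells (0.46 ± 0.23, adjusted p = 0.11), where it passed at the same size without replicate 1 (0.46, 0.034) or 2 (0.46, 0.028) of the LSD1-labelled cells at day 0, with an interaction of 2.04 ± 0.32 (adjusted p = 1.89e-04). Hspa8, the constitutive cytosolic chaperone, had 1472, 1302 and 1388 CPM in LSD1-labelled and 676, 599 and 572 CPM in control cells at day 7, and 548, 305 and 355 CPM in LSD1-labelled against 653, 689 and 625 CPM in control cells at day 0. It was higher in LSD1-labelled cells at day 7 (1.17 ± 0.18) and lower at day 0 (-0.70 ± 0.18; adjusted p = 7.94e-05 and 0.011).

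Slc5a3 and Apod, named for their large falls at day 0, were lower in LSD1-labelled cells at both days. Slc5a3, the myo-inositol transporter that answers osmotic stress, lay under 17231 bp shared with Mrps6 and had 70.4, 70.7 and 64.9 CPM in LSD1-labelled and 627, 515 and 575 CPM in control cells at day 7, and 123, 143 and 116 CPM in LSD1-labelled against 410.0, 394 and 439 CPM in control cells at day 0. Apod, a lipocalin that carries small lipids, had 10.3, 10.8 and 10.5 CPM in LSD1-labelled and 80.9, 68.5 and 117 CPM in control cells at day 7, and 111, 70.8 and 73.2 CPM in LSD1-labelled against 266, 361 and 287 CPM in control cells at day 0. In both genes each LSD1-labelled library lay below each control library. The day 7 difference was -3.06 ± 0.12 for Slc5a3 and -3.08 ± 0.23 for Apod, and the day 0 difference was -1.70 ± 0.11 and -1.84 ± 0.21 (edgeR adjusted p = 9.53e-07 and 6.72e-05 at day 0).

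The gene list of LSD1 complexes had no covered member among 22, and none of the macrophage, endothelial, muscle, bone and cartilage markers was covered. With 526 of all 13356 genes tested covered, no covered member in lists this short is not a result. The remaining lists held few covered genes each, too few to set their calls against the 63.6% of all genes called at day 7 (30.2% higher, 33.4% lower). 6 of 26 chromatin regulators were covered, with 3 higher and 2 lower in LSD1-labelled cells at day 7. 5 of 15 cell cycle genes were covered, with 2 higher and 2 lower at day 7. The 4 covered homeobox and developmental regulators (Meis2, Prrx1, Snai1 and Twist1) gave 3 lower and 0 higher at day 7, and the 4 covered signalling genes (Fzd1, Fzd2, Spry2 and Pdgfa) gave 2 lower and 0 higher.

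Covered genes were last grouped by what became of their peak in LSD1-labelled cells at day 7, a list the width rule did not use. 12 tested genes had a broad peak without any overlap at day 7, and 11 of them were lower and 0 higher at day 7 against day 0 in those cells (median -3.31). They were Dlk1, Acta2, Apod, Ifit1, Ifit1bl2, Ifit3, Mx2, Avil, Mir546, Trim69 and Cfap157, and the 12th, Il4i1, did not pass. Of the 209 with less than 50% of the peak covered at day 7, 124 were lower and 38 higher (median -0.85). Of the 305 with 50% or more covered, 109 were lower and 104 higher (median -0.04), near the 37.2% lower and 32.6% higher of all genes. Without replicate 1 of the LSD1-labelled cells at day 0 the splits were 11 lower and 0 higher, 127 and 46, and 119 and 123, the last with a median of 0.05. Ifit1 and Ifit1bl2 may share reads, and Mir546 lies inside Avil, so the 12 are not 12 independent genes. The same grouping was made by the control list at day 7, for LSD1-labelled against control cells at day 7. Over all genes, 33.4% were lower and 30.2% higher in that comparison. Among 41 tested genes without overlap, 29 were lower and 5 higher (median -1.72). Among 385 with under 50%, 130 were lower and 125 higher (33.8% and 32.5%), near the shares over all genes. Among 100 with 50% or more, 29 were lower and 42 higher. By the control list at day 0, the day 0 calls were 58 higher and 33 lower of 204 tested without overlap (28.4% and 16.2%), 59 and 31 of 305 under 50% (19.3% and 10.2%), and 5 and 3 of 17 at 50% or more (29.4% and 17.6%), against 12.8% and 13.0% of all genes. A missing interval in a list says that no peak was called there, not that LSD1 was absent.

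**Figure D5:**
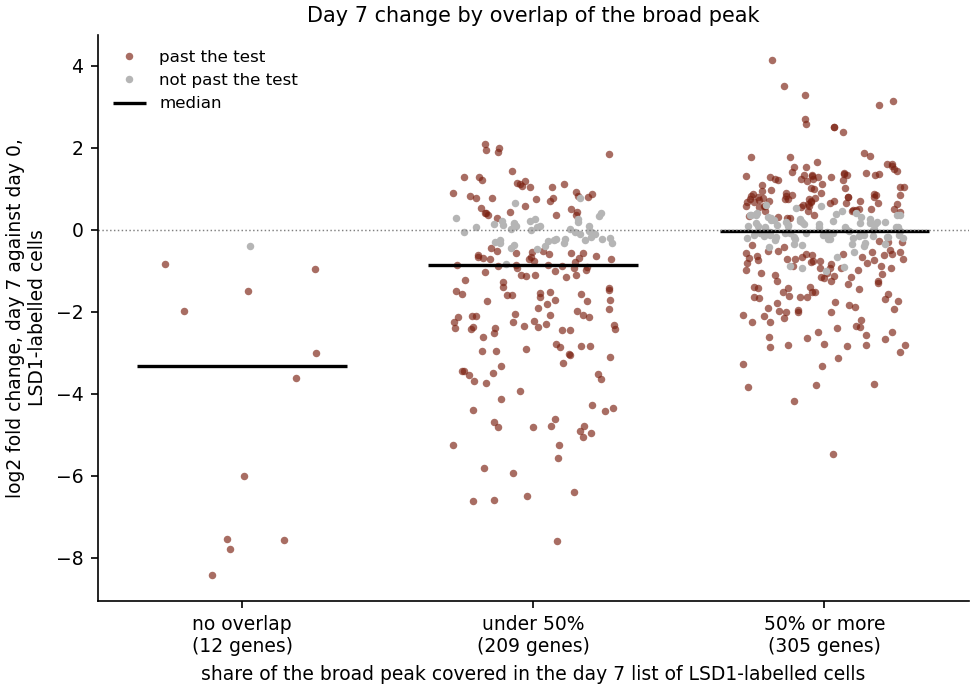
Log2 fold change at day 7 against day 0 in LSD1-labelled cells for 526 covered genes (points; dark where the edgeR test was passed), grouped by the share of their broad peak that the day 7 list of the same cells covers; black lines are medians. Medians are -3.31 for 12 genes without overlap, -0.85 for 209 under 50% and -0.04 for 305 at 50% or more.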

How the data were processed

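RNA-seq was measured in 12 libraries and ChIP-seq in 6 peak lists of 3T3-L1 cells. The deposited RNA files hold raw read counts per transcript, and the deposited peak files hold peak positions with the authors' score. The submitters' processing notes name TopHat2, HOMER, edgeR and DESeq for RNA, MACS and Bowtie2 for ChIP, and build mm10, without roles or order. Peak starts are given 1-based. Where a gene had several transcript rows, the one with most counts on average stood for it. The 1200 rows without a gene name (0.896% of counts) were each kept as a gene of their own. Those that passed the filter are therefore among all genes tested. Genes that passed edgeR's filterByExpr were fitted in 1 quasi-likelihood model over the 4 groups (edgeR 4.0.16, R 4.3.3) with TMM scaling and Benjamini-Hochberg adjustment, and the steps were tested on simulated data. CPM used TMM-scaled library sizes. Library totals of 27512273 to 37565527 counts set the precision of RNA values, and the depth of the peak lists is unknown. The labels call the 3 RNA libraries of a group biological replicates and do not say which cultures they came from. One Nrf1 list carries a title and a genotype label that disagree, so Nrf1 lists are named by day only.

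The members and gene lists were chosen with earlier results of these data known. Named genes are those of the widest peaks, those with the largest changes in each comparison and members of the lists, and not every gene that this rule names is described. Alternatives were DESeq2 1.42.0, other scalings and filters, a replicate block, leaving out each library, and other widths, overlaps and scores for peaks. Input samples were not used here.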

Additional observations from a re-analysis of the deposited data

Results flagged for a closer look

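The log2 difference between LSD1-labelled and control cells itself differed between day 7 and day 0 (edgeR's test of the label by day interaction, adjusted over all genes tested) for 39 of the 43 genes examined, against 51.9% of all genes. These genes were named in part for large changes in the same comparisons, so their share is no result. The value is the difference at day 7 minus that at day 0, in log2 units. 25 were negative. The most negative were Cxcl5 -9.98, Ifit1 -9.25, Ifit3 -8.23, Isg15 -6.76, Ccl2 -6.20, Sned1 -6.19, Dnm3os -5.46, Mir100hg -5.43 and Cxcl1 -5.36. Next came Lpcat2 -5.35, Dlk1 -5.24, Cdh11 -5.06, Cxcl12 -4.52, Csf1 -3.63, Malat1 -3.23, Col1a1 -3.11, Zfp36l1 -2.67 and Adamts1 -2.58. The remaining negative values were F3 -2.31, Neat1 -2.09, Acta2 -1.62, Thbs1 -1.38, Slc5a3 -1.36, Apod -1.23 and Kdm1a -0.57. 14 were positive: Il4i1b 2.94, Atf5 2.51, Gpx4 2.04, Hspa8 1.88, Jund 1.48, Lpl 1.38, Atf4 1.33, Mus81 1.29, Ddit3 1.07, Pim3 0.91, Col3a1 0.70, Plin4 0.61, Amotl2 0.60 and Brd2 0.60. All but Kdm1a are genes covered by broad peaks, and the values of Ifit1, Ifit3, Isg15 and Ccl2 include replicate 1 of the LSD1-labelled cells at day 0, in which these genes were highest.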

How the results depend on the processing

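No value past the test changed sign under these alternatives. Without replicate 1 of the LSD1-labelled cells at day 0, the median of covered genes with 50% or more of the peak kept at day 7 changed sign (0.05). So did the day 0 differences of F3 (0.01), Brd2 (0.03), Atf5 (0.008) and Gpx4 (-0.19), none of which passed. Among the values outside the main counts, 5913 stayed on the same side, 186 were weaker, 82 stronger and 19 moved. With genes counted by gene body, 554, 588 and 459 covered genes passed in LSD1-labelled against control cells at day 7, in day 7 against day 0 of LSD1-labelled cells and in that of control cells, and with a width of 4000 bp or more 563, 598 and 467 did. With 6000 bp or more, 118 passed at day 0. These settings change how many genes are tested. Broad peaks overlapped at 50% of their length numbered 257 in the list of LSD1-labelled cells at day 7, 83 in control cells at day 7, 18 in control cells at day 0 and 0 in each Nrf1 list. With 4000 bp or more, 910 peaks met the first list, 646 the second, 96 Nrf1 at day 7 and 105 Nrf1 at day 0. Against peaks with a score of 100 or more, 106 met control cells at day 0, 37 Nrf1 at day 7 and 22 Nrf1 at day 0. Leaving out 1 library at a time, covered genes called ranged from 320 to 411 for the label at day 7, from 135 to 311 at day 0, from 362 to 426 for day 7 against day 0 in LSD1-labelled and from 248 to 375 in control cells, and from 295 to 396 for the interaction. Over all genes the ranges were 7660 to 9954, 2172 to 6564, 8790 to 10288, 5249 to 8533 and 6305 to 8746 in that order. Deviations from the group means correlated from -0.249 to 0.114 between same-numbered libraries, and from -0.152 to 0.198 between differently numbered ones. With 3 libraries in each group, these values cannot decide whether the replicate numbers mark paired samples. With the replicate block 349, 173, 382, 280 and 307 covered genes passed in the same order. Peak lists have 1 library each, so no peak value has an error.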
